A study of Homo sapiens with 36 samples.

Results

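The replication-dependent histone genes are the gene copies that supply new H1, H2A, H2B, H3 and H4 protein when a cell copies its DNA. Members were the genes whose symbol is H1-1 to H1-6 or begins with H2AC, H2BC, H3C or H4C followed by a number, which gave 69 of the 62710 genes in the deposited tables: 6 for H1, 17 for H2A, 18 for H2B, 13 for H3 and 15 for H4. Of these, 55 lay on chromosome 6, 13 on chromosome 1 and 1 on chromosome 12 (H4C16). Total RNA came from H9, a line of human embryonic stem cells, at days 0, 3 and 7 of neuronal induction by NGN2, a proneural factor switched on with doxycycline. The genotypes compared were labelled WT, HET (RAI1+/-) and KO (RAI1-/-), with 4 biological replicates in each of 9 groups and 36 libraries. RAI1 encodes a chromatin regulator. How many edited clones stand behind a genotype is not given in the sources used here, so genotype and the history of a cell line cannot be told apart.

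Replication-dependent histone genes have no introns and lie in clusters, and their messages end in a stem-loop in place of a poly(A) tail. NPAT drives their transcription at the entry to S phase, SLBP binds the stem-loop, and the U7 particle directs cutting of the 3′ end. Cells that stop dividing shut these genes down, and histones made outside S phase, such as that encoded by H3-3A, take over. Libraries were depleted of ribosomal RNA and not selected for poly(A), a preparation that keeps such messages.

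Depth ran from 23948079 to 56678796 counts per library, and levels are given as CPM, a gene's counts scaled to the same total in each library. RAI1 was at 23.9 to 53.8 CPM at day 0, 33.5 to 110.3 CPM at day 3 and 34.5 to 88.1 CPM at day 7, and its mean was not lower in the libraries labelled HET or KO than in WT on any day, so these tables give no check on the genotypes as labelled. Summed over 4 pluripotency markers, WT was at a mean of 2596 CPM at day 0 and 52.7 CPM at day 7, and over 7 neuron markers at 375 and 8185 CPM. The summed share of 5 abundant noncoding RNAs (RMRP, RPPH1, RN7SK, RN7SL2 and RN7SL1), called small structural RNAs here, was 2.84% to 27.47% of a library's counts and varied between replicates. In bulk RNA, fewer dividing cells and less histone RNA per cell cannot be told apart.

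The results turn on 3 genes of the chromosome 6 clusters, H2BC3, H3C3 and H4C13, so their promoters are shown with those of a neighbour, H3C2, and of an abundant H2B gene, H2BC6. Each run is the 250 bases before the gene's start, 5′ to 3′ on the gene's strand, from RefSeq on GRCh38.p14. The intervals are chr6:26043714-26043963 (minus strand) for H2BC3, chr6:26045134-26045383 (plus) for H3C3, chr6:27873535-27873784 (minus) for H4C13, chr6:26032100-26032349 (minus) for H3C2 and chr6:26183511-26183760 (plus) for H2BC6. Capitals mark matches, on either strand, to the octamer ATTTGCAT, to TATAAA and to CCAAT.
H2BC3: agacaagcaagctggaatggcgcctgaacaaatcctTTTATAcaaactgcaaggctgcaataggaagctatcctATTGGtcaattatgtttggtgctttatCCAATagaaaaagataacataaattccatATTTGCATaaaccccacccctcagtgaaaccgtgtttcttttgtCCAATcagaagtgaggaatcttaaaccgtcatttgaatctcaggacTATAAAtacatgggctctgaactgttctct
H3C3: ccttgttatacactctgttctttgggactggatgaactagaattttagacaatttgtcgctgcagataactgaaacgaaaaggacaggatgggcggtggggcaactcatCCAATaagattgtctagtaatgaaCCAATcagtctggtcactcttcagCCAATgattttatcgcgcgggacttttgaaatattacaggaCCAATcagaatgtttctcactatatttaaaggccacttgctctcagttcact
H4C13: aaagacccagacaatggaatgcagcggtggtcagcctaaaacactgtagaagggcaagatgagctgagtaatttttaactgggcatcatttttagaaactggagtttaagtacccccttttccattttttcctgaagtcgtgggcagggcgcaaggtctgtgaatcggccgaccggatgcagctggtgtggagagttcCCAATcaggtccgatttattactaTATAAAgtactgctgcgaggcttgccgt
H3C2: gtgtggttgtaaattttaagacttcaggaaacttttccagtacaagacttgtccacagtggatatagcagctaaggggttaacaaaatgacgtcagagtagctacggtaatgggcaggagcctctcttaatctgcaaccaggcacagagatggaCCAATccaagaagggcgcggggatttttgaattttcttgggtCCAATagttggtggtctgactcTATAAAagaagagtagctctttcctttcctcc
H2BC6: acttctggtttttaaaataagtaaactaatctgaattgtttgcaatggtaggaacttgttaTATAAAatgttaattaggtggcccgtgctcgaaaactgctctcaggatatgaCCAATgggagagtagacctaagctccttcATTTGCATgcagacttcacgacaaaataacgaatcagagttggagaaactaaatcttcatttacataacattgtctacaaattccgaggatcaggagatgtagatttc

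The promoter table held 64 of the 69 members. ATTTGCAT was found in 26 of them, against 1.63% of 35116 promoters of the same length, and those 26 were mostly H2B (14 of 18) and H2A (11 of 16) genes. TATAAA was in 42 of 64 (10.72% of all promoters) and CCAAT in 54 of 64 (32.01%), but CCAAT was in only 3 of the 13 H4 promoters. H2BC3 carries all 3 motifs, like H2BC6. H3C3 carries CCAAT but not TATAAA in this window, whereas H3C2 and H4C13 carry both. These letters are a description of sequence and not evidence of binding.

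At day 0 the summed level of the 69 genes overlapped between genotypes, and 3 single genes stood apart in KO. Summed over all members, WT libraries held 8687, 7628, 9637 and 9969 CPM, HET libraries 7855, 4972, 7938 and 9325 CPM, and KO libraries 7927, 7012, 9335 and 10267 CPM. The mean of WT was 8980.5 ± 1052.4 CPM, that of HET 7522 ± 1829 CPM and that of KO 8635 ± 1448 CPM (SD, n = 4). With edgeR's quasi-likelihood test and Benjamini-Hochberg adjustment over all genes, only 3 of 65 members tested differed between KO and WT, all higher, against 2.08% of all 20437 genes called (1.66% higher and 0.416% lower). The median log2 fold change was -0.03 over the members and 0.01 over all genes. H2AC1, H2BC1, H4C6 and H4C7 had too few counts to be tested.

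The 3 genes were H2BC3, H3C3 and H4C13, which encode an H2B, an H3 and an H4. H2BC3 was counted 49, 23, 42 and 18 times in the WT libraries, 21, 15, 13 and 34 times in HET and 1013, 845, 1132 and 1704 times in KO. H3C3 was counted 90, 45, 66 and 52 times in WT, 33, 15, 10 and 58 times in HET and 3666, 2561, 3738 and 4430 times in KO. H4C13 was counted 1, 3, 4 and 4 times in WT, 1, 1, 2 and 5 times in HET and 811, 591, 758 and 1008 times in KO. For each gene every KO library stood far above every WT and HET library, and WT and HET overlapped. On the fitted scale KO exceeded WT by a log2 fold change of 5.43 (SE 0.33, edgeR adjusted p = 5.09e-07) for H2BC3, 6.09 (SE 0.333, adjusted p = 1.88e-07) for H3C3 and 8.26 (SE 0.321, adjusted p = 8.83e-09) for H4C13.

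Pooled over 4 libraries and divided by depth, the KO to WT ratio was 42.4 for H2BC3 (95% exact counting interval 35.6 to 50.7), 67.8 for H3C3 (59.8 to 77.0) and 314.4 for H4C13 (179.7 to 609.1). These intervals cover counting error only. The same 3 genes were higher in KO than in HET (log2 fold changes 5.85, 7.00 and 8.40, edgeR adjusted p at most 7.76e-07), where 0.856% of all genes were called (0.524% higher and 0.333% lower). Between HET and WT edgeR called 0 of 65 members, against 1.63% of all genes (1.22% higher and 0.411% lower). At an unadjusted p under 0.05 there were 4, DESeq2 and limma on TPM also called 0, and a fit with the replicate number as a block called 3, all lower. In the edgeR fit all 65 members had a log2 fold change below 0 in HET, with a median of -0.23 against 0.01 over all genes. Without HET replicate 2, 48 of 65 were below 0, with a median of -0.08. H3C3 itself was at a log2 fold change of -0.91 in HET (SE 0.361, adjusted p = 0.343).

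TPM is the deposited unit that divides by transcript length. In KO at day 0, H3C3 ranked mid-class in TPM, and H4C13 and H2BC3 ranked near the bottom of their classes. H3C3 had a mean of 368 TPM and ranked 8 of 13 H3 genes, H4C13 had 137 TPM and ranked 13 of 15 H4 genes, and H2BC3 had 119 TPM and ranked 15 of 18 H2B genes. In WT the ranks were 13, 14 and 17, with means of 5.62, 0.43 and 2.91 TPM. Together the 3 genes made up 2.13% ± 0.10 (SD, n = 4) of the histone CPM in KO at day 0.

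H2BC3 (chr6:26043227-26043713) and H3C3 (chr6:26045384-26045869) are neighbours 1670 bases apart, with only the pseudogene H2AC5P between them. H4C13 (chr6:27873148-27873534) lies 1827278 bases away in the other part of the cluster. The nearest members on the outer sides were not called between KO and WT at day 0. H2AC4, 9608 bases from H2BC3, was at 88.1 CPM in WT and 89.1 CPM in KO, and H1-2, 9870 bases from H3C3, was at 418 and 394 CPM. H3C11, 801 bases from H4C13, was at 60.6 CPM in WT and 75.8 CPM in KO (log2 fold change 0.35, SE 0.193, edgeR adjusted p = 0.513). H3C11 was not called between KO and HET either (adjusted p = 0.219), but was with DESeq2 and with the replicate block. H2AC5P, between H2BC3 and H3C3, had a mean of 0.31 CPM in KO at day 0 against 0.02 in WT and 0.06 in HET, and of 0.07 CPM in KO at day 3 against 0.01 in both others, with no test given at these levels. Of the 151-base windows of their GENCODE 29 transcripts, 0 of 231 for H2BC3 and 0 of 162 for H4C13 were shared with transcripts of other histone genes. Transcripts of other genes were not compared, and H3C3 was not analysed this way.

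**Figure D1:**
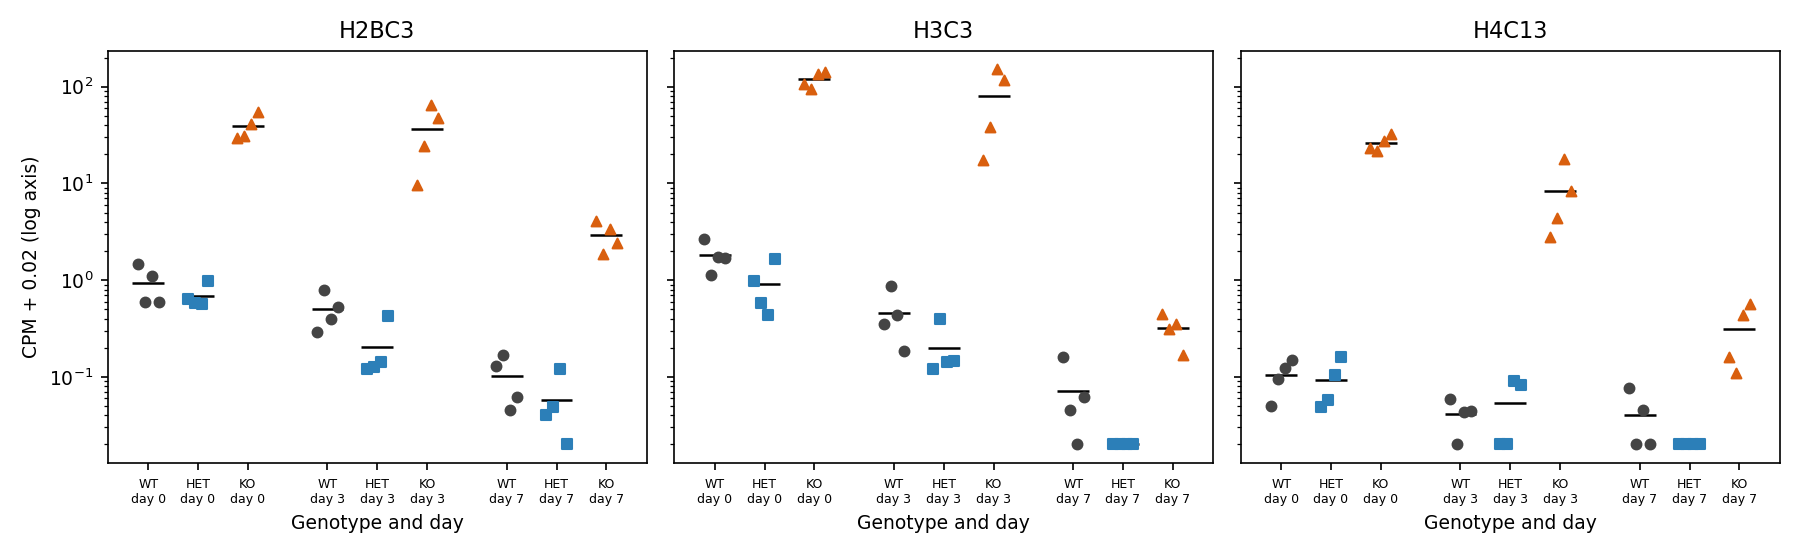
CPM plus 0.02 on a log axis for H2BC3, H3C3 and H4C13 by genotype and day, 1 point per library and a line at the mean of 4. At days 0 and 3 the KO libraries stand above all WT and HET libraries of the same day for each gene, and at day 7 the gap is widest for H2BC3.

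The 3 genes were again higher in KO at day 3, and H2BC3 alone could be tested at day 7. H2BC3 was counted 373, 1101, 2552 and 2192 times in the KO libraries of day 3, against 14 to 33 times in WT and 4 to 13 times in HET. H3C3 was counted 676, 1713, 5910 and 5302 times against 7 to 36 in WT and 4 to 14 in HET, and H4C13 106, 194, 707 and 384 times against 0 to 2 and 0 to 4. The lowest KO library exceeded the highest WT or HET library for each gene. KO against WT gave log2 fold changes of 6.34, 7.63 and 8.47 (edgeR adjusted p at most 3.97e-05).

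By day 7 in KO, H2BC3 was counted 173, 82, 132 and 80 times, H3C3 18, 13, 13 and 5 times and H4C13 6, 4, 16 and 18 times. H2BC3 was counted 1 to 6 times in WT and 0 to 4 times in HET at day 7, and its log2 fold change was 5.15 against WT (SE 0.55, edgeR adjusted p = 5.27e-05) and 6.14 against HET (adjusted p = 0.000199). H3C3 and H4C13 were too low for the test at day 7. H3C3 had 49 counts over the KO libraries, 8 over WT (ratio 6.3, 95% counting interval 3.0 to 15.5) and 0 over HET. Against a floor of 3 counts over the group, the KO to HET ratio for H3C3 was 15.4, which is not a lower limit. H4C13 had 44 counts over KO, 3 over WT (95% counting interval of the ratio 4.9 to 76.4) and 0 over HET (ratio 13.8 against the same floor, lower 95% counting limit 10.8). Leaving out any library kept all these calls of KO against WT and KO against HET for the 3 genes at days 0 and 3.

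In WT, many members were higher in CPM at day 3 than at day 0, and nearly all fell from day 3 to day 7. The summed level was 18748, 19676, 16499 and 8371 CPM in the 4 WT libraries of day 3, against 7628 to 9969 CPM at day 0, and 2429, 1326, 1832 and 1437 CPM at day 7. Replicate 4 of day 3 was low and lay within the day 0 range, while the other 3 stood above it. The day 7 libraries lay below all others of WT. As a mean, WT moved from 8980.5 ± 1052.4 to 15824 ± 5144 to 1756 ± 499 CPM (SD, n = 4).

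**Figure D2:**
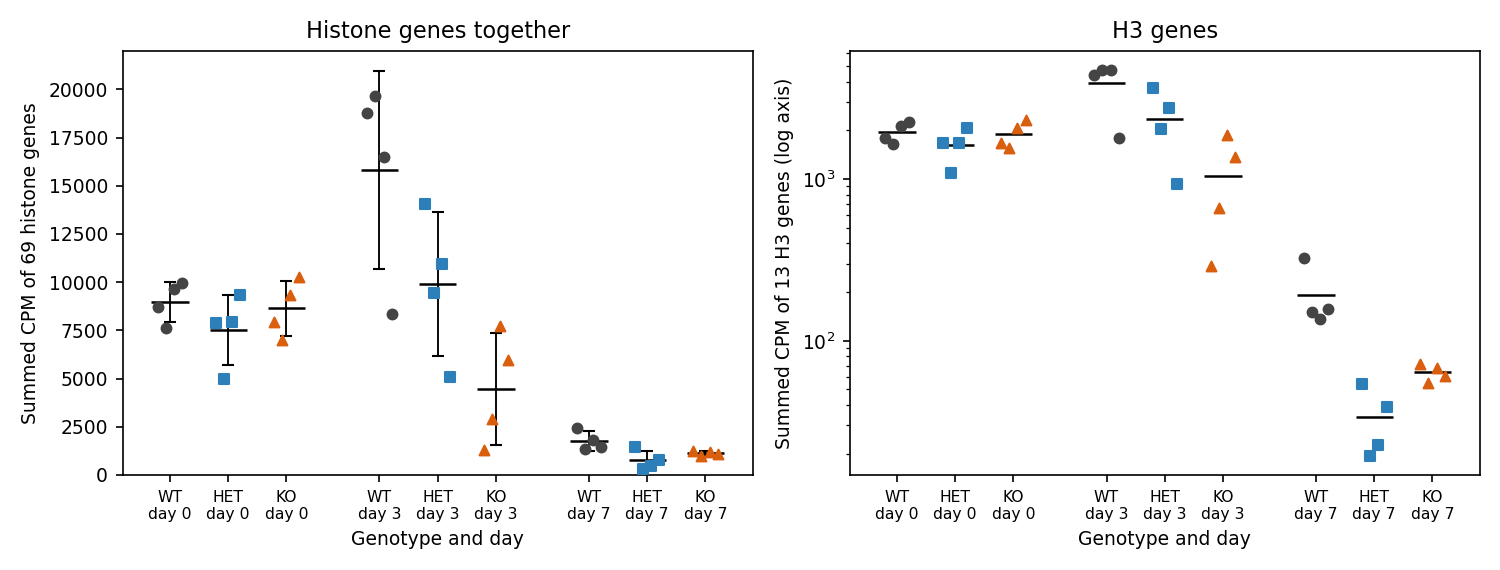
Summed CPM of the 69 histone genes (left, linear axis, mean and SD of 4 libraries) and of the 13 H3 genes (right, log axis, line at the mean) by genotype and day, 1 point per library. Day 3 separates WT, with a mean of 15824 CPM, from KO, with 4474 CPM, and the day 7 libraries lie lowest of their genotype, with KO day 3 replicate 1 close to them.

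Between days 0 and 3 in WT, 35 of 64 members passed the edgeR test, 29 higher and 6 lower, where 60% of all genes were called (31.2% higher and 28.7% lower). The direction of this rise depends on the scale: on log2(TPM + 1) with limma, 24 members passed, of which 5 were higher and 19 lower. In TPM the median of all genes also moved, to -0.38 from 0.07 in edgeR, and relative to all genes the members' median was 0.54 in edgeR and -0.13 in TPM. The 5 higher on both scales were H4C12, H2BC11, H4C11, H3C10 and H1-4. Small structural RNAs took 8.99% to 19.6% of WT counts at day 3 and 4.51% to 6.42% at day 0, and their part in the result was not tested: a fit adjusted for that share called 19 members, 15 higher and 4 lower.

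Among the H1 linker histones, which bind DNA between nucleosomes, H1-4 rose in WT from 149 to 211 CPM over the day 0 libraries to 446 to 691 CPM at day 3 (log2 fold change 1.73, SE 0.221, edgeR adjusted p = 1.15e-05). H1-2 rose by 1.46 (adjusted p = 9.72e-05), and H1-3 and H1-5 by 0.89 and 1.01, but H1-2 was not called on the TPM scale and H1-3 and H1-5 changed sign there. H1-1 went the other way on both scales: it was at 1.71 to 2.55 CPM in WT at day 0 and at 0 to 0.023 CPM at day 3. H1-6, a testis type, did not pass (log2 fold change -0.13, adjusted p = 0.824). Outside H1, H2BC11, an H2B gene, rose from 97.8 to 154 CPM at day 0 to 382 to 623 CPM at day 3 (log2 fold change 2.15, SE 0.271, edgeR adjusted p = 1.01e-05). H4C12 and H4C11, which share 100% and 72.6% of their 151-base windows and so cannot be cleanly told apart, rose by 2.17 and 2.02. The 6 lower members were H1-1, H3C3, H2BC7, H4C1, H2AC21 and H4C16.

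From day 3 to day 7 in WT, 60 of 64 members fell and none rose by the edgeR test, with 46.2% of all genes called (23.3% higher and 22.9% lower). The median log2 fold change was -2.89 over members and 0.01 over all genes. The H3 genes had the lowest class median, -3.99, against -2.23 for H4 and -2.38 for H1. H1-1, H2AC25, H2BC7 and H4C5 did not pass. The S-phase gene list fell too, 18 of 18, with a median of -3.46, including E2F2 by 5.47 and RRM2, a ribonucleotide reductase subunit, by 5.14 on the log2 scale.

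Members differed in how much of their day 0 level remained at day 7 in WT. Over 60 members with at least 5 CPM in WT at day 0, the median was 15% and the range 3.8% to 120% in CPM. In TPM the same 60 members had a median of 6.0% and a range of 1.6% to 32.1%, so the percentages depend on the unit. The 7 members for which polyadenylated forms have been reported (H1-2, H2AC6, H2BC4, H2BC5, H2BC11, H2BC12 and H2BC21) had a median of 33.3% with a range of 9.0% to 78.0%, and the other 53 had 14.3% with a range of 3.8% to 120%, in CPM. The medians in TPM were 13.7% and 5.9%. This is a description with no test.

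H2AC6 was at 122, 105, 133 and 137 CPM in the WT libraries of day 0 and at 140, 68.2, 115 and 64.6 CPM at day 7, so its groups overlapped in CPM. In TPM they did not: H2AC6 was at 278 to 359 TPM at day 0 and 78.9 to 131 TPM at day 7, or 32.1% kept. By contrast H1-5, the H1 gene highest per length on average, went from 477 to 656 CPM to 21.1 to 74.8 CPM. H4C5 kept 62.3% in CPM and 26.4% in TPM, H1-4 56.7% and 24.2%, and H2BC21 42.9% and 18.6%. H2AC25, at 120% in CPM, was at 30.5% in TPM. H3C7, H2BC17 and H2AC16 kept 3.8%, 3.9% and 4.4% in CPM and 1.6%, 1.7% and 1.9% in TPM. H2BC11 and H2BC12, from the list of 7, kept 12.6% and 9.0% in CPM and 5.2% and 3.8% in TPM.

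**Figure D3:**
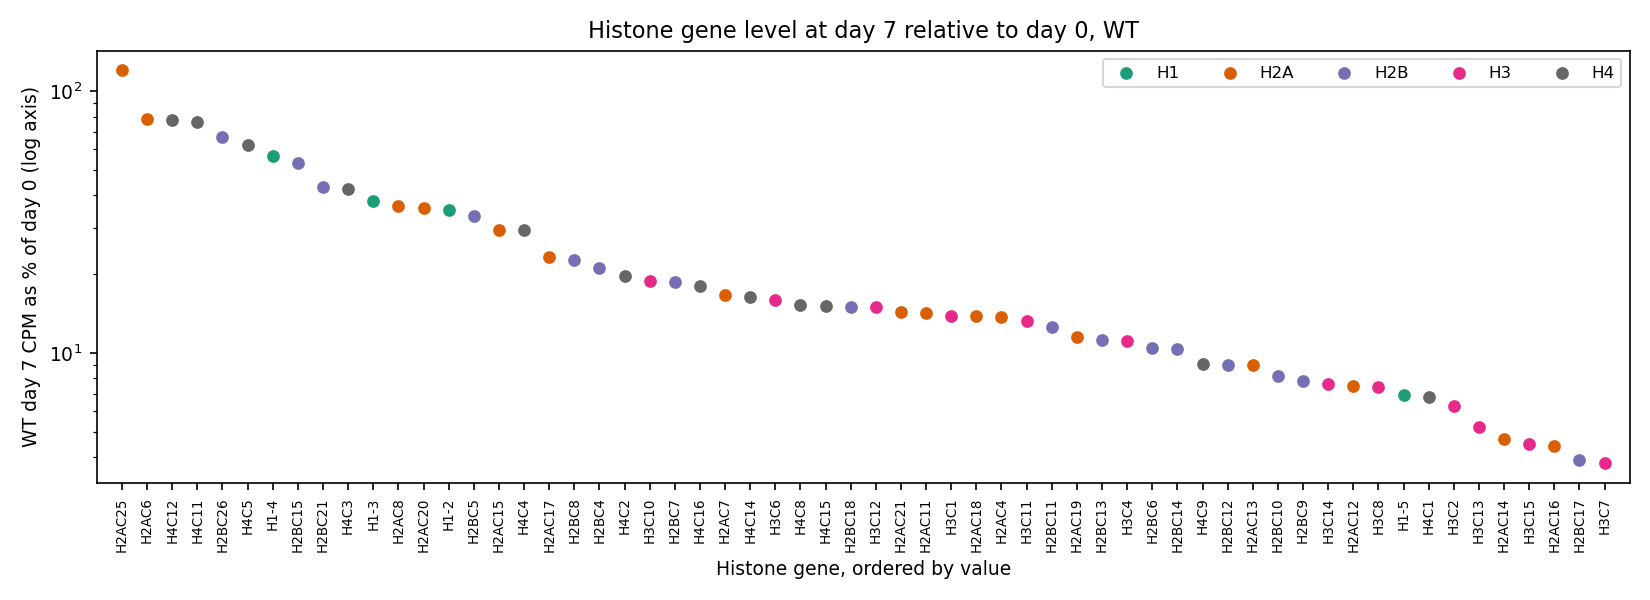
WT level at day 7 as a percent of day 0 (log axis) for the 60 members with at least 5 CPM at day 0, ordered and coloured by histone class. Values run from 120% for H2AC25 and 78.0% for H2AC6 to 3.8% for H3C7, and 10 of the 12 H3 genes shown lie at or below the median of 15%.

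At day 3 the histone genes were lower in KO than in WT. Summed levels were 1276, 2921, 7727 and 5972 CPM in the KO libraries and 18748, 19676, 16499 and 8371 CPM in WT, with no overlap in CPM. HET libraries (14068, 9454, 10925 and 5076 CPM) overlapped both. In TPM the KO and WT sums did overlap: WT replicate 4 was at 10369.0, below KO replicates 2 and 3. In CPM, KO replicates 1 and 2 averaged 0.133 of the WT mean, and replicates 3 and 4 averaged 0.433. The KO libraries did not split this way in TPM, where they summed to 4016.5, 12164.8, 11919.1 and 7424.7. The KO mean was 4474 ± 2914 CPM and the HET mean 9881 ± 3737 CPM (SD, n = 4).

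Against WT, 35 of 64 members differed in KO at day 3 by edgeR, 3 higher and 32 lower, where 21.6% of all genes were called, 12.6% higher and 8.93% lower. The 3 higher were H2BC3, H3C3 and H4C13. The median log2 fold change was -1.64 over the members and -0.05 over all genes, and 58 members had an unadjusted p under 0.05. All 5 H1 genes tested were lower, with 6 of 16 H2A, 10 of 17 H2B, 5 of 13 H3 and 6 of 13 H4 genes.

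The count depended on the libraries: it was 13 without KO replicates 1 and 2, 11 without KO replicate 2 alone, and 18, 19 and 20 without WT replicates 1, 2 or 3. On log2(TPM + 1), limma called 14, of which 11 were lower. H2BC11 kept its call in each of these fits: 21.02, 62.8, 164 and 150 CPM in KO against 382 to 623 CPM in WT (log2 fold change -2.24, SE 0.526, edgeR adjusted p = 0.00824). H3C10 was at 36.5, 80.5, 248 and 211 CPM in KO against 389 to 876 CPM in WT (-2.21, SE 0.542, adjusted p = 0.0107), and H3C8 at 28.4, 52.6, 196 and 195 against 389 to 826 CPM (-2.16, adjusted p = 0.0206). H3C10 and H2BC11 kept their calls in every alternative fit, whereas H3C8 lost its call without KO replicates 1 and 2 (adjusted p = 0.0846) and in a fit that left out 1 library (adjusted p up to 0.0596).

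The fall in KO at day 3 came with other values that differed between the same libraries. Of all genes, 8.93% were called lower in KO. Of 18 S-phase genes, 16 were lower in KO than in WT (median log2 fold change -1.31), among them CDK1, a mitotic kinase (-1.67, adjusted p = 0.00294), CCNE1, a G1/S cyclin (-1.61, adjusted p = 0.000257), and MCM2, a replicative helicase subunit (-1.61, adjusted p = 0.000331). Neuron markers summed to 4079 to 8292 CPM in KO and 1174 to 1593 CPM in WT. Small structural RNAs took 4.92% and 3.54% of KO replicates 1 and 2 and 14.9% and 18.75% of replicates 3 and 4. Their part in the histone result was not tested. A fit adjusted for that share called 40 histone members, 3 higher and 37 lower, with a median log2 fold change of -1.65. Of the histone processing genes, 1 of 12 was lower, a count near the 8.93% over all genes. It was SLBP, which binds the histone stem-loop (-0.96, SE 0.168, edgeR adjusted p = 0.00132). Of 11 replication-independent histones, 3 were lower (H2AX, CENPA and H2AZ1), as were 6 of 12 histone chaperones, CHAF1B by 1.78 on the log2 scale.

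HET did not reach that call at day 3. By edgeR 0 of 64 members differed from WT, with 3.28% of all genes called (2.52% higher and 0.761% lower), 2 members at an unadjusted p under 0.05, 0 by limma on TPM and 1 by DESeq2. The replicate numbers paired these libraries in their deviations, and the fit with that block called 1 member, H4C16, lower. The median log2 fold change of members in HET was -0.62 against 0.02 over all genes. Between KO and HET, 3 of 64 members differed at day 3, H2BC3, H3C3 and H4C13, where 4.35% of all genes were called (2.77% higher and 1.58% lower). The median there was -1.06. DESeq2 or the replicate block called 5 members, the fit without KO replicate 4 called 5, and the fit adjusted for small structural RNAs called 9.

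Whether the change from day 0 to day 3 differed between KO and WT was tested as an interaction over all 36 libraries. Of 65 members 3 passed, H2BC21, H2BC26 and H3C10, all lower in KO, with 8.55% of all genes called (5.37% higher and 3.19% lower). At an unadjusted p under 0.05 there were 49. The median interaction was -1.58 over the members against -0.02 over all genes. H2BC21 had an interaction of -1.57 (SE 0.414, edgeR adjusted p = 0.0149), from 113 to 156 CPM in KO at day 0 to 37.2 to 120 CPM at day 3, against 123 to 152 and 176 to 321 CPM in WT. The count moved with the libraries, with 18 called without KO day 3 replicate 3 and 11 without replicate 4. It was 1 without KO day 3 replicate 1 or 2, KO day 0 replicate 1, 3 or 4, WT day 0 replicate 2 or 3, or WT day 3 replicate 1 or 2. Without KO day 3 replicates 1 and 2 together it was 1, H3C3, higher. The same interaction for HET called 0 of 65 members with edgeR, 0 at an unadjusted p under 0.05 and 0 with DESeq2 or limma, with 0.271% of all genes called (0.182% higher and 0.0888% lower).

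**Figure D4:**
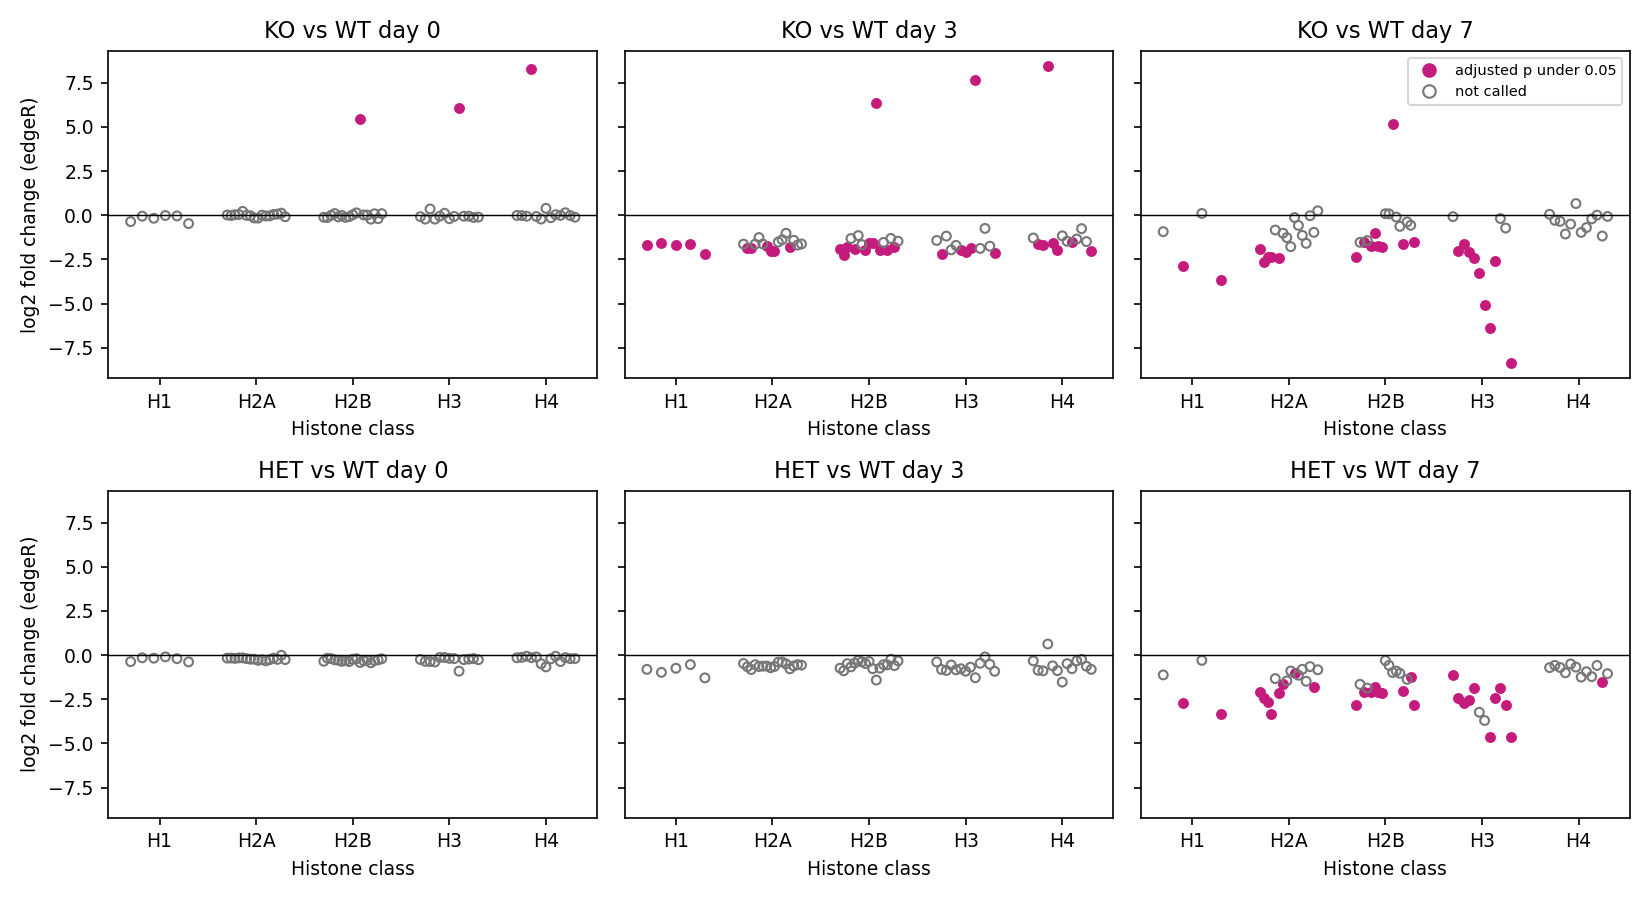
log2 fold change of each tested member against WT by histone class, for KO (top) and HET (bottom) at days 0, 3 and 7; filled points have an edgeR adjusted p under 0.05. In KO, 3 members stand high at days 0 and 3 and 1 at day 7, and at day 7 H3 genes reach lower than any other class.

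At day 7 histone RNA was low in all genotypes and lower in HET and KO than in WT for many members. Summed levels were 2429, 1326, 1832 and 1437 CPM in WT, 1450, 333, 475 and 781 CPM in HET, and 1236, 983, 1191 and 1105 CPM in KO. In CPM all KO libraries lay below all WT libraries, and HET replicate 1 overlapped WT. In TPM the KO libraries (1691.0 to 2530.5, mean 2154) overlapped the WT libraries (1968.9 to 2474.8, mean 2151). All HET libraries (1374.2 to 1621.9 TPM) lay below all WT libraries.

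In KO 25 of 61 members differed from WT by edgeR, 1 higher (H2BC3) and 24 lower, against 32.6% of all genes called (17% higher and 15.6% lower). Adjusted for the share of small structural RNAs, 30 passed, of which 9 were higher and 21 lower. The median log2 fold change was -1.07 over the members and -0.04 over all genes, and the members' median after that adjustment was -0.30. In HET 30 of 61 members differed from WT, all lower, against 14.4% of all genes called (8.31% higher and 6.1% lower). The members' median was -1.52. The 2 comparisons share their WT libraries.

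Among the classes, H3 genes fell in 9 of 12 tests in KO and 10 of 12 in HET, with medians of -2.26 and -2.61. No H4 gene passed in KO of 12 tested by edgeR, 1 had an unadjusted p under 0.05, DESeq2 called 2 and limma on TPM 1, and 1 H4 gene passed in HET. H3 genes made up 10.8% ± 2.46 of the histone CPM in WT at day 7, 4.84% ± 0.87 in HET and 5.66% ± 0.16 in KO (SD, n = 4), and H4 genes 24.5% ± 2.73, 28.1% ± 4.79 and 29.03% ± 1.84.

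H3C8 was at 28.8, 7.07, 2.40 and 7.28 CPM in WT, 1.13, 0, 0 and 0.504 CPM in HET, and 0.071, 0.045, 0 and 0 CPM in KO. H3C2 was at 45.7, 19.6, 5.54 and 18.3 CPM in WT, 2.28, 0.115, 0.050 and 0.776 CPM in HET, and 0.470, 0.067, 0.154 and 0.361 CPM in KO. H1-5 was at 74.8, 26.5, 21.1 and 36.4 CPM in WT, 8.48, 1.00, 1.13 and 4.23 CPM in HET, and 2.42, 2.36, 2.01 and 5.74 CPM in KO. For these 3 genes every WT library was above every HET and KO library.

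H3C8 had 1765 counts over the WT libraries and 5 over KO, a WT to KO ratio of 341.3 (95% exact counting interval 146.0 to 1052.3), and 69 over HET (ratio 23.3, interval 18.3 to 30.1). H3C2 gave 83.3 (61.3 to 116.3) for KO and 23.1 (19.5 to 27.6) for HET. For H1-5 the ratios were 12.9 (11.7 to 14.1) and 9.5 (8.7 to 10.3). Single libraries moved these pooled ratios by over 1.5 times, and the counting intervals take no account of the spread between libraries. Without HET replicate 1 the ratios to HET were 82.8 for H3C8, 82.9 for H3C2 and 20.5 for H1-5. Without WT replicate 1 the H3C8 ratios were 180.8 to KO and 12.3 to HET, and without KO replicate 1 the H3C8 ratio to KO was 625.1. On the fitted scale KO against WT was -8.37 for H3C8 (SE 1.46, edgeR adjusted p = 0.00105), -6.39 for H3C2 (SE 1.09, adjusted p = 0.000925) and -3.68 for H1-5 (SE 0.73, adjusted p = 0.00231). HET against WT was -4.64 (adjusted p = 0.0147), -4.62 (adjusted p = 0.00808) and -3.32 (adjusted p = 0.00881). H3C8 lost its HET call in a leave-one-out fit (adjusted p up to 0.0506), while the other calls of these genes held in each alternative. H3C15, at -5.11 in KO, shares all of its 151-base windows with H3C14, so the reads of the pair cannot be divided.

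Other members were not called between KO and WT at day 7. H2AC6 was at 140, 68.2, 115 and 64.6 CPM in WT and 113, 87.8, 108 and 78.6 CPM in KO (log2 fold change -0.03, SE 0.467, edgeR adjusted p = 0.967). H1-4 had a log2 fold change of 0.10 (SE 0.453) and H2BC21 of 0.08 (SE 0.273). H1-3 fell, by 2.90 on the log2 scale in KO and 2.73 in HET, so members of 1 class were called lower and not called side by side. Between KO and HET 3 of 61 members differed, H2BC3, H3C6 (1.70, SE 0.18) and H2BC9 (1.31, SE 0.295), where 1.4% of all genes were called (0.668% higher and 0.737% lower). That count was 26 after adjustment for small structural RNAs and 11 without HET replicate 1.

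The S-phase list was also lower at day 7: 11 of 18 genes in KO (median -0.92) and 9 of 18 in HET (median -0.69). Of all genes, 15.6% were called lower in KO and 6.1% in HET. Small structural RNAs took 14.49% to 25.58% of the WT libraries, 9.9% to 15.84% of the KO libraries, and 27.47%, 2.84%, 4.17% and 13.35% of the HET libraries. Within HET the library with the highest share, replicate 1, had the highest histone sum in CPM. In TPM it did not, at 1416.6 against 1621.9 for replicate 3. Without HET replicate 1, 59 members were called lower in HET against WT. Without HET replicate 3 the count was 18, and without WT replicate 1 it was 17. Their part in the histone result was not tested.

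**Figure D5:**
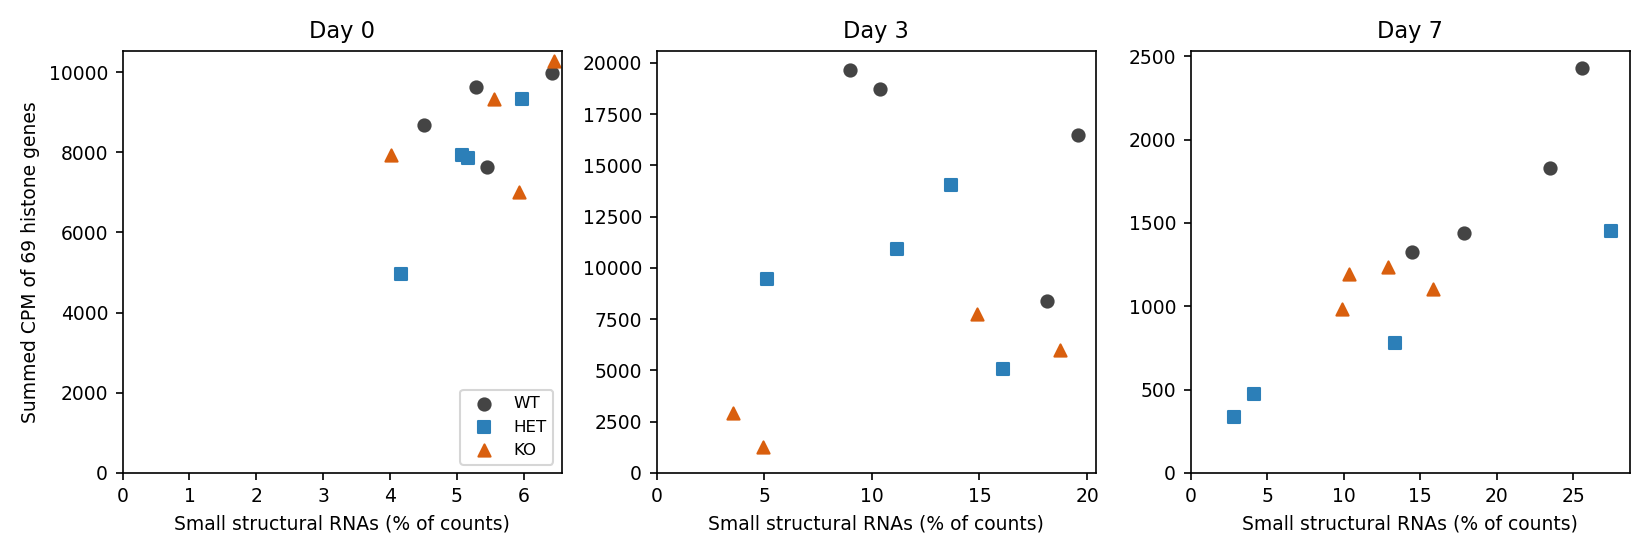
Summed histone CPM (linear axis, a separate scale for each day) against the share of counts from 5 small structural RNAs, 1 point per library. At day 7 HET replicate 1 (27.47%, 1450 CPM) stands apart from the other HET libraries, and at day 3 KO replicates 1 and 2 have both the lowest shares and the lowest CPM sums of KO. In TPM, not plotted, HET replicate 1 (1416.6) lay among the other HET libraries (1374.2 to 1621.9). KO day 3 replicate 2 had the highest TPM sum of its group, 12164.8.

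Changes from day 3 to day 7 differed between KO and WT for 10 of 65 members, where 18.5% of all genes were called (7.6% higher and 10.9% lower): 6 were higher in KO relative to WT (H4C9, H2AC8, H4C16, H1-4, H2BC21 and H2BC26) and 4 lower (H3C8, H3C3, H3C2 and H3C15). On log2(TPM + 1) limma gave 8 higher and 3 lower, and the fit without KO day 3 replicates 1 and 2 gave 1 higher and 7 lower. The count was 6 without KO day 3 replicate 2, KO day 7 replicate 1, WT day 3 replicate 1, WT day 7 replicate 2 or WT day 7 replicate 4. H3C8 had an interaction of -6.22 (SE 1.37, edgeR adjusted p = 0.00126) and H3C2 of -4.57 (SE 1.03, adjusted p = 0.0016), while H2BC21 had 1.66 (SE 0.414, adjusted p = 0.00427). For HET against WT 4 of 65 members passed, H3C2, H3C8, H1-5 and H2BC9, all lower, against 4.74% of all genes (2.06% higher and 2.69% lower). That count was 22 without HET day 7 replicate 1 and 8 without HET day 3 replicate 4. It was 2 without HET day 3 replicate 1, HET day 7 replicate 2 or 3, or WT day 7 replicate 1.

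The replication-independent histones and the genes that serve histone supply are given for WT beside the members. The summed level of the former was 1930 ± 107 CPM (SD, n = 4) before induction, 3332 ± 260 CPM by day 3 and 2236 ± 92.4 CPM by day 7, and 7 of 11 passed as higher from day 0 to day 3, where 31.2% of all genes were higher and 28.7% lower, among them H3-3A, which encodes an H3 made throughout the cell cycle (log2 fold change 1.33, SE 0.15, edgeR adjusted p = 3.42e-06). From day 3 to day 7, where 22.9% of all genes were lower, 6 of 11 fell, CENPA, the centromeric H3, and H2AX most. Of 12 histone transcription and processing genes, 7 were called by day 3, near the 60% of all genes called, with 6 lower and 1 higher (LSM11), and 8 of 12 were lower from day 3 to day 7, SLBP by 1.21 on the log2 scale. Of the chaperones that load new histones, 8 of 12 were lower at day 3 and 7 of 12 lower again at day 7. In KO at day 0 none of the 11 replication-independent histones, 12 processing genes, 12 chaperones or 18 S-phase genes tested differed from WT by edgeR.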

How the data were processed

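Total RNA depleted of ribosomal RNA was read in pairs of 151 bp, per the labels' protocols. The authors deposited expected counts per gene, whole numbers here, and TPM per gene; cutadapt 4.8, STAR 2.7.8a, RSEM 1.3.3 and GRCh38 are named in the submitters' processing notes. Use of strand is not given in the sources used here, so reads of overlapping genes cannot be told apart. The 4 reporter rows were left out.

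Genotypes were compared within each day (12 libraries), times within WT (12) and interactions over 36 libraries, with edgeR 4.0.16 in R 4.3.3 on rounded expected counts: TMM, filterByExpr, quasi-likelihood tests, adjusted p under 0.05. Alternatives were DESeq2 1.42.0, limma 3.58.1 on log2(TPM + 1), other scalings, no filter, a replicate block, the small structural RNA share as covariate and each replicate left out. Leaving out KO day 3 replicates 1 and 2, retention in TPM and pooled ratios without 1 library were chosen after seeing the data. On simulated counts for KO against WT at day 7 (21215 genes) 16% of 2-fold, 62% of 4-fold and 92% of 16-fold changes were recovered, with 3.6% of calls false.

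Replicate numbers come from the titles. In 2 comparisons all 4 same-numbered pairs deviated together by over 0.1: KO-WT, day 0 (correlations 0.137 to 0.335), and day 3 HET-WT (0.105 to 0.614). p-values measure the spread between these samples. Members and lists were chosen with earlier results of these data known. Named genes were the 2 highest per class by TPM, up to 3 rises and 3 falls per comparison with WT (at least 5 CPM, no overlap), reported polyadenylated, testis-type and H1 members, and up to 3 list genes; neighbours, retained members and members called in counts of 10 or fewer were named after their values were seen.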

Additional observations from a re-analysis of the deposited data

Results flagged for a closer look

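In 144 groups of 4 libraries (sums of all members and of each class, and 10 genes), 7 had a library far from the other 3 by Dixon's test, where chance gives about 1 in 20, or 7.2. Summed H3 genes were at 1794 CPM in WT day 3 replicate 4, against 4383 to 4711 CPM in the others, and at 323 CPM in WT day 7 replicate 1, against 136 to 158 CPM. Summed H4 genes were at 1337 CPM in WT day 3 replicate 4, against 2551 to 2598 CPM. H2BC3 was at 0.407 CPM in HET day 3 replicate 4 (others 0.101 to 0.124) and H3C3 at 0.372 CPM in HET day 3 replicate 2 (others 0.101 to 0.125). H1-5 was at 5.74 CPM in KO day 7 replicate 4 (others 2.01 to 2.42), and H4C5 at 55.7 CPM in HET day 0 replicate 2 (others 99.0 to 102).

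The change between days differed from WT, by an interaction test, for 3 of 65 members in KO from day 0 to 3 (8.55% of all genes), for 10 of 65 in KO from day 3 to 7 (18.5% of all genes) and for 4 of 65 in HET from day 3 to 7 (4.74% of all genes). These counts, at the adjusted threshold, are below or near the share over all genes. For KO from day 0 to 3, 49 of 65 members had an unadjusted p under 0.05 by edgeR. Their median interaction was -1.58 against -0.02 over all genes.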

How the results depend on the processing

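KO against WT at day 0 gave 3 members under every alternative and every left-out library, and HET-WT from day 0 to 3 gave 0. With the replicate block the counts became 3 for HET against WT at day 0, 5 for KO against HET at day 0, 1 for HET against WT at day 3, 5 for KO against HET at day 3, 5 for KO against HET at day 7 and 9 for KO-WT from day 0 to 3. It moved no other count of members by over 1.5 times. With DESeq2 they became 5 and 5 for KO against HET at days 0 and 3, 1 for HET against WT at day 3, 6 for KO against HET at day 7, 10 for KO-WT from day 0 to 3 and 7 for HET-WT from day 3 to 7. limma on log2(TPM + 1) gave 14 for KO against WT at day 3, 14 for HET and 16 for KO against WT at day 7, 1 for KO against HET at day 7, 5 for KO-WT from day 0 to 3 and 0 for HET-WT from day 3 to 7. The small structural RNA covariate gave 1 for HET against WT and 9 for KO against HET at day 3, 26 for KO against HET at day 7, 19 for WT day 3 against day 0, and 26 and 23 for KO-WT from day 0 to 3 and 3 to 7. Library size alone gave 12 for KO-WT from day 0 to 3, and no filter 6 for KO against HET at day 7. Without KO day 3 replicates 1 and 2, a choice made after seeing the data, the counts were 13 for KO and 2 for HET against WT at day 3, 1 for KO-WT from day 0 to 3 and 10 for HET-WT from day 3 to 7. The cause of these moves was not tested. Leaving out each library gave 11 to 49 for KO and 0 to 0 for HET against WT at day 3, 3 to 5 for KO against HET at day 3, 20 to 24 for KO, 17 to 59 for HET and 2 to 11 for KO against HET at day 7, 27 to 46 and 59 to 61 for WT from day 0 to 3 and 3 to 7, and 1 to 18, 6 to 15 and 2 to 22 for KO-WT from day 0 to 3, KO-WT from day 3 to 7 and HET-WT from day 3 to 7. In summed TPM the log2 ratio of all members was near 0 in 2 comparisons. It was -0.04 for WT day 3 over day 0 (0.82 in CPM) and 0.0 for KO over WT at day 7 (-0.64 in CPM). H2A and H4 reversed to 0.14 and 0.24 in KO over WT at day 7, and H4 to -0.12 in WT day 3 over day 0. Such class reversals were listed only where the CPM ratio exceeded its SD between libraries. The mean H2B sum in WT, below that SD, went from 2338 CPM at day 0 to 3228 CPM at day 3. In TPM it went from 7097 to 5536. On log2(TPM + 1), H1-3 (-0.14), H1-5 (-0.18), H2BC12 (-0.18), H2BC21 (-0.14) and H2BC5 (-0.37) reversed for WT day 3 against day 0. Of 92 calls of named members, 72 held in every left-out-library fit, 55 in every other alternative and 53 in both. Depth limits H2BC3, H3C3 and H4C13 in WT and HET, which had few or no counts.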

Other observations

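H4C7, H2AC1, H2BC1 and H4C6 were silent or close to it in all 36 libraries, and H1-6 and H1-1 were low but detected. H4C7 had 2 counts in all, in 2 libraries, and H2AC1, a testis-type H2A, had 11 counts over 7 libraries. H2BC1, a testis-type H2B, had 63 counts over 17 libraries, with at most 11 in any. H4C6 had 71 counts over 16 libraries. The testis linker histone H1-6 was detected in 33 libraries, with 967 counts and at most 96 in a library, at 0.898 to 2.85 CPM in WT at day 0 and 0.104 to 0.529 CPM at day 7. H1-1 had 707 counts in 20 libraries: its mean in WT was 2.06 CPM at day 0 and 0.01 and 0.02 CPM at days 3 and 7.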
